A study of Mus musculus with 29 samples.

Results

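Gfi1 and Gfi1b are paralogous genes for zinc finger transcriptional repressors of blood cells. They were covered by 10 of the 260686 windows, each named for a gene, whose DNA methylation in mouse lung was analysed here. Windows outside genes were not included, so shares of all windows below refer to windows named for genes. Of the 10 windows, 7 carried the name Gfi1 and 3 carried the name Gfi1b. Members were taken by gene name, and the pair had been picked from the data because a short exonic window of Gfi1 had one of the largest rises in methylation after allergen challenge. The methylation of that window, and the difference after challenge in the other Gfi1 windows, are therefore given as a description. Gfi1 windows were in the fit over all windows, and where its calls for the challenge are counted nothing is read from them.

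Both proteins bind DNA through C-terminal zinc fingers and carry an N-terminal SNAG domain, a short peptide that recruits the demethylase KDM1A and its partners to silence target genes. GFI1 is best known in granulocyte, lymphoid and stem cell development, where it restrains monocytic genes, and it is also active in type 2 innate and T helper lymphocytes. GFI1B acts mainly in erythroid cells and platelet-forming megakaryocytes. Methylation at CpG dinucleotides is usually scarce at active promoters and abundant in gene bodies, and its level in a whole tissue averages over the cell types present.

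The study used lung DNA of 29 BALB/c offspring, described as 13-week-old females, read by whole-genome methyl-sequencing (WGMS), an enzymatic method that leaves methylated cytosines readable as cytosine. In the Sham group (n = 7) the dams had received saline into the nose and the offspring nebulised saline. The Sham-OVA group (n = 7) had Sham dams and was sensitised with alum-adsorbed ovalbumin (OVA), an egg protein, and challenged with OVA aerosol. The PM (n = 7) and PM-OVA (n = 8) groups were treated in the same ways but came from dams given fine particulate matter (PM2.5) before mating and through gestation to weaning. Lungs of all groups were taken after lung function tests with nebulised methacholine under anaesthesia. In the published methods airway lavage followed these tests, and which of the 29 animals were lavaged is not stated. No group carried a genetic change, and the labels do not say which offspring shared a dam, so the spread between libraries may include litters. Values were percent methylation (%DNAm) per window of about 50 CpG dinucleotides, with no read coverage beside them, so depth is unknown and no counting error can be given. Each library covered 258952 to 260135 windows, with an average of 67.8% to 70.2%.

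One library differed in kind from the rest. In Sham replicate 1, 1224 of 1230 Y chromosome windows held a value, against 29 to 46 in the other 28 libraries, and 5.95% of its X chromosome windows lay under 10%, against 0.268% to 0.488% in the others. It therefore goes against the description of all animals as female. Without it the numbers of called windows of both genes were those with it, and the OVA difference in Sham of the picked Gfi1 window was 27.3 points without and 27.5 points with this library. Values without it are in the ranges given for single libraries left out.

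Gfi1 lies on the minus strand of chromosome 5 (GRCm38, chr5:107716657-107726036) and Gfi1b on the minus strand of chromosome 2 (chr2:28609450-28621982). Windows are numbered here from the 5′ end of each gene. The picked window, Gfi1 window 5 (chr5:107721362-107721744), spanned 383 bp, of which 369 were coding bases of a single exon, exon 3 of transcript Gfi1-201. It held 50 CpGs, or 13.1 per 100 bp, where the median tested window had 1.06 per 100 bp over 4772 bp, and only 1.32% of tested windows were as CpG-dense. The 3 coding exons downstream of it have coding lengths of 138, 166 and 176 bases, and the last 3 coding exons of Gfi1b (transcript Gfi1b-201) have the same lengths, so the exon before them can be set side by side. That exon has 488 bases with 54 CpGs in Gfi1 (11.1 per 100 bp) and 272 bases with 8 CpGs in Gfi1b (2.94 per 100 bp). The 300 bases at the 5′ side of Gfi1 window 5 (chr5:107721445-107721744) and the Gfi1b counterpart exon (chr2:28613677-28613948), which lies in Gfi1b window 3, are shown 5′ to 3′ on the minus strand with each CpG in capitals, so that the CpG content of the picked window can be seen beside that of its paralogue. The third line gives the 250 bases before the start of Gfi1-201 (chr5:107724344-107724593), which lie in Gfi1 window 2 and were nearly unmethylated in all groups. Sequences are those of RefSeq's GRCm38 assembly.
Gfi1 window 5: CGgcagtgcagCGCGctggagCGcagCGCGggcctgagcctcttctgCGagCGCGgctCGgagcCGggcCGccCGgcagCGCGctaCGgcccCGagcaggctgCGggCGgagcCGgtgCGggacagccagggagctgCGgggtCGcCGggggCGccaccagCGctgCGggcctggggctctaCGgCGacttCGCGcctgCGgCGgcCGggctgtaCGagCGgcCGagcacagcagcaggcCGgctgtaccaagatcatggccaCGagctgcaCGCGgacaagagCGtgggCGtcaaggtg
Gfi1b counterpart exon: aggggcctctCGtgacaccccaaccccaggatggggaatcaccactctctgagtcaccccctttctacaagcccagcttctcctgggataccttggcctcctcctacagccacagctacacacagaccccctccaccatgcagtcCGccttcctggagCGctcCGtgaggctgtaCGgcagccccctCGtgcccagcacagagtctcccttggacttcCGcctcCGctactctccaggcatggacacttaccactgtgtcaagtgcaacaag
Gfi1 before the start: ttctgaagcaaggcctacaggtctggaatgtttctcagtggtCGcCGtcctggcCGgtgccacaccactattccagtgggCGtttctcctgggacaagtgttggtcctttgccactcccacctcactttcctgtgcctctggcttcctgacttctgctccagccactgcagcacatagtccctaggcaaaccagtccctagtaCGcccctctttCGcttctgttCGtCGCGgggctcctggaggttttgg
The stretch of Gfi1 window 5 has 43 CpGs in 300 bases, the Gfi1b exon 8 in 272 and the Gfi1 stretch before the start 9 in 250.

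After OVA, methylation of the central coding region of Gfi1 was higher in both kinds of offspring, whereas the Gfi1 windows on either side of it differed by less than 1.0 percentage point. The higher part comprised windows 4, 5 and 6, which follow each other over 4707 bp (chr5:107718680-107723386) with 150 CpGs, and it took up 50.2% of the gene's length. Averaged over the 3 windows, %DNAm was 18.2% ± 2.86 (SD, n = 7) in Sham and 39.9% ± 5.68 (n = 7) in Sham-OVA, a difference of 21.6 points. It was 18.0% ± 2.90 (n = 7) in PM and 35.6% ± 4.70 (n = 8) in PM-OVA, a difference of 17.6 points. The lowest OVA library (28.3%, in PM-OVA) lay above the highest unchallenged library (23.9%, in Sham).

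**Figure D1:**
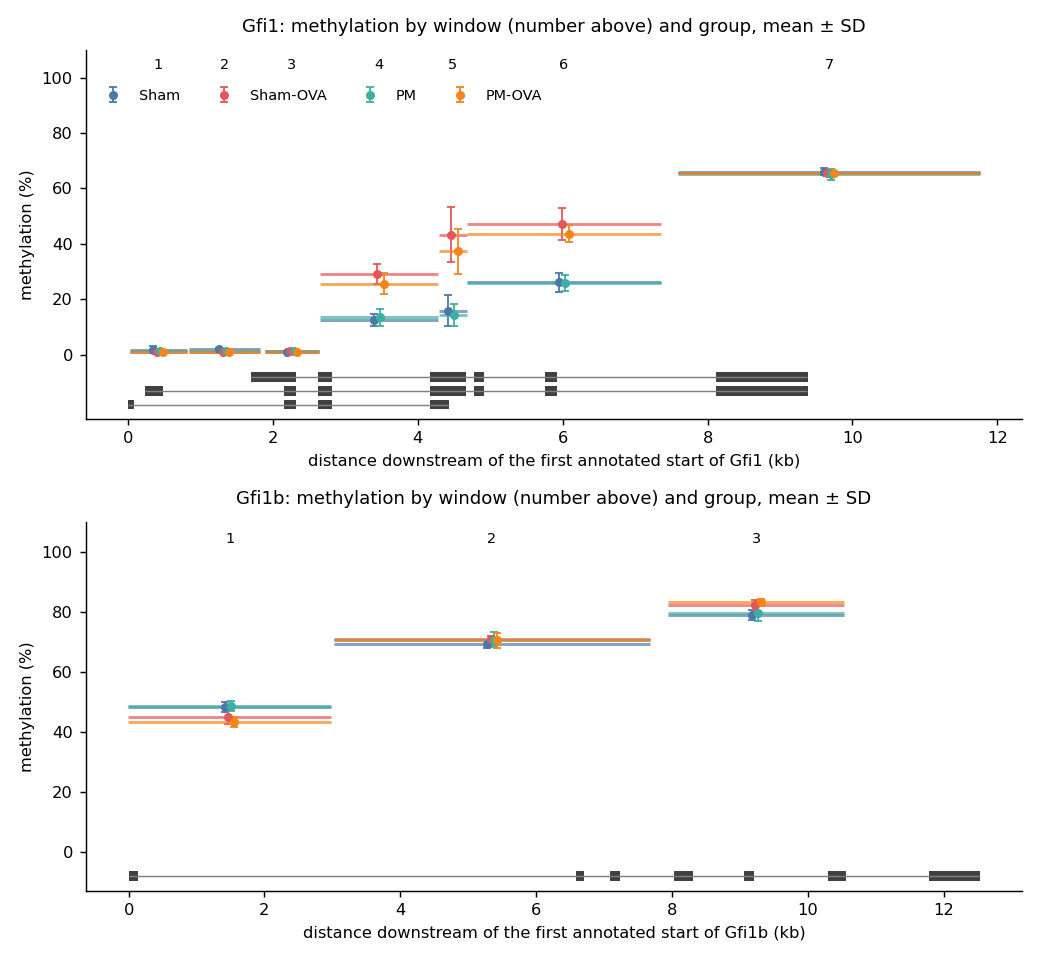
Methylation (%, vertical axis) of each window against distance downstream of the first annotated start (kb, horizontal axis) for Gfi1 (top) and Gfi1b (bottom). Horizontal lines span the windows, points and bars are group means ± SD (n = 7, 7, 7 and 8), numbers name the windows, and dark boxes are exons of annotated transcripts (Gfi1-201, Gfi1-203 and Gfi1-204 from top to bottom, and Gfi1b-204). The OVA groups separate from the unchallenged groups in Gfi1 windows 4 to 6, and by at most 5.30 points in Gfi1b.

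In Gfi1 window 5, the picked exonic window, %DNAm in Sham ran from 7.75% to 24.4% with a median of 14.8%, and in Sham-OVA from 29.7% to 56.9% with a median of 42.5%. The PM libraries ran from 9.53% to 19.0% (median 15.7%) and the PM-OVA libraries from 24.2% to 52.7% (median 36.0%). All 7 Sham-OVA libraries were above all 7 Sham libraries, by at least 5.30 points, and all 8 PM-OVA libraries above all 7 PM libraries, by at least 5.17 points. The highest unchallenged library of all (Sham, 24.4%) and the lowest OVA library (PM-OVA, 24.2%) overlapped. The means were 15.9% ± 5.63 in Sham, 43.4% ± 9.91 in Sham-OVA, 14.4% ± 3.85 in PM and 37.3% ± 8.21 in PM-OVA, so that the differences were 27.5 points in Sham and 22.9 points in PM.

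Ordered by the OVA difference in Sham, this window was number 5 of 259167 tested windows, just under a window of Agap2 at 28.7 points and just above one of Snx20 at 27.3 points. In PM it was number 13, between windows of Fmnl1 (22.9 points) and 2700081O15Rik (22.8 points). Among the 3892 tested windows that were shorter than 1000 bp and exonic over at least 90% of their length, it was number 3 in Sham and number 2 in PM. For those short exonic windows OVA differences had a median of 0.17 points in Sham offspring and 0.10 in PM offspring. A median short exonic window had 0.529% methylation in Sham and 83.9% of them were under 5%, so that the Gfi1 window, with 15.9%, was more methylated than 89.3% of them before challenge. It also varied more between animals than most windows of its class, with an SD of 9.91 in Sham-OVA against a median of 4.74 for the 92 short exonic windows within 10 points of its mean.

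Gfi1 window 6 (chr5:107718680-107721361, 2682 bp, with exons 4 and 5 of Gfi1-201 among introns) had a median of 24.1% in Sham (22.8% to 31.5%) and 48.9% in Sham-OVA (38.9% to 55.0%). In PM its median was 25.6% (23.0% to 31.3%) and in PM-OVA 44.4% (38.7% to 47.9%). No OVA library overlapped an unchallenged one, and the differences of means were 21.0 points in Sham and 17.8 points in PM. Gfi1 window 4 (chr5:107721764-107723386, 1623 bp, with 264 coding bases of exons 2 and 3) had a median of 12.7% in Sham (9.66% to 15.9%) and 29.4% in Sham-OVA (23.2% to 32.8%). Its median was 13.2% in PM (9.37% to 18.2%) and 25.4% in PM-OVA (19.4% to 32.3%), and the differences of means were 16.4 points in Sham and 12.1 points in PM. Again the groups with and without OVA did not overlap.

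**Figure D2:**
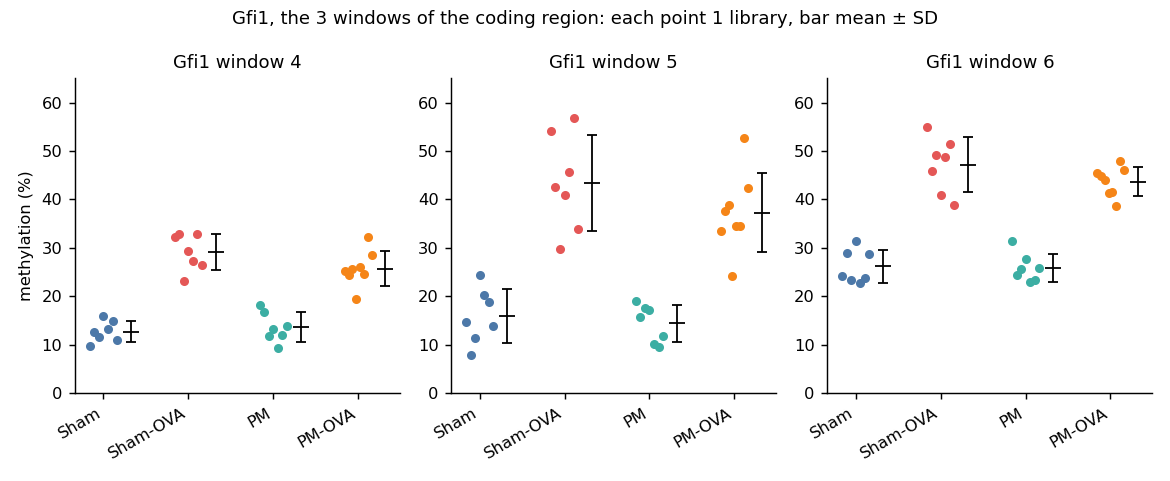
Methylation (%, vertical axis) of Gfi1 windows 4, 5 and 6 in every library (points) of the Sham, Sham-OVA, PM and PM-OVA groups (horizontal axis), with black bars for mean ± SD. Within Sham and within PM offspring all OVA libraries lie above all unchallenged ones, and window 5 has the widest spread among OVA libraries (29.7% to 56.9% in Sham-OVA).

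The 3 windows covaried from animal to animal. After the group means were taken out, Pearson's r over the 29 libraries was 0.80 between windows 4 and 5, 0.56 between windows 5 and 6 and 0.46 between windows 4 and 6. The points share their library, and r is given as a description. With window 7, r was 0.07 for window 5, 0.18 for window 4 and -0.05 for window 6. With Gfi1b windows 1, 2 and 3, on another chromosome, r of window 5 was -0.44, 0.30 and 0.38, that of window 4 was -0.36, 0.41 and 0.32, and that of window 6 was -0.17, 0.31 and 0.41, so that values near those between windows 4 and 6 also occurred outside the region.

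A window was called where limma's moderated test, on a log2 ratio (methylated over unmethylated percent, each plus 1) across all 259167 windows, gave a Benjamini-Hochberg adjusted p under 0.05, and it counted as a differentially methylated region (DMR) where the group means also differed by at least 10 points. Of the 7 Gfi1 windows, 3 (windows 4, 5 and 6) were higher DMRs after OVA in Sham, where 0.479% of all tested windows were. Windows 4, 5 and 6 were also the higher DMRs in PM, where 0.263% of all windows were. None was a lower DMR, against 0.296% of all windows in Sham and 0.321% in PM. The fit also called Gfi1 window 2 lower in Sham, and with each library centred on its median it called no Gfi1 window lower. Since Gfi1 was taken for this contrast, nothing is read from these counts. Across all windows, 37.3% of the calls for OVA in Sham and 21.0% of those in PM were higher, and with each library centred on its median these shares were 50.1% and 51.6%.

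The other Gfi1 windows marked the edges of this region. Windows 1, 2 and 3 (chr5:107725228-107726014, chr5:107724218-107725202 and chr5:107723400-107724147), which hold the alternative first exons, were almost free of methylation, with group means of 0.89% to 1.94% and no library above 4.29%. Their OVA differences lay between -0.96 and 0.23 points. In window 2 the means were 1.94% ± 0.478 in Sham and 0.975% ± 0.307 in Sham-OVA. Window 7 (chr5:107714277-107718439), with the last coding exon and the 3′ untranslated region, stood at 65.1% to 66.1% in all 4 groups and differed by -0.43 points in Sham and 0.64 points in PM after OVA. Thus %DNAm went from about 1% through 12.7%, 15.9% and 26.2% to 66.1% along the gene in Sham, and through 29.1%, 43.4% and 47.2% to 65.7% in Sham-OVA.

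Gfi1b was not chosen by its values and could be tested. It had modest differences in opposite directions at its ends, with the 5′ window lower and a downstream coding window higher after OVA. Gfi1b window 1 (chr2:28619000-28621989), with the first, untranslated exon and part of the first intron, ran from 45.9% to 51.4% in Sham (median 48.7%) and from 42.7% to 47.7% in Sham-OVA (median 44.0%). It ran from 46.9% to 51.7% in PM (median 48.6%) and from 40.2% to 45.7% in PM-OVA (median 43.4%). The Sham and Sham-OVA libraries overlapped, while all 8 PM-OVA libraries lay below all 7 PM libraries. In limma the window fell, by 3.46 points for Sham-OVA against Sham (log2 ratio -0.20 ± 0.06 SE, adjusted p = 0.00852). For PM-OVA against PM the difference was -5.30 points (log2 ratio -0.30 ± 0.06 SE, adjusted p = 8.35e-05).

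Gfi1b window 3 (chr2:28611450-28614037), which contains the counterpart exon printed above and the coding exon after it, ran from 77.0% to 81.2% in Sham (median 79.0%) and from 78.7% to 84.7% in Sham-OVA (median 82.4%). In PM it ran from 75.5% to 83.5% (median 79.3%) and in PM-OVA from 81.9% to 85.4% (median 83.2%). It rose in both comparisons, by 3.27 points for Sham-OVA against Sham (log2 ratio 0.29 ± 0.09 SE, adjusted p = 0.00957) and 3.57 points for PM-OVA against PM (log2 ratio 0.32 ± 0.08 SE, adjusted p = 0.00283), although the libraries overlapped. Gfi1b window 2 (chr2:28614307-28618954), with exons 2 and 3, did not pass the test, at 69.3% ± 1.19 in Sham and 70.9% ± 1.23 in Sham-OVA (adjusted p = 0.257), and 70.8% ± 2.46 in PM and 70.6% ± 2.51 in PM-OVA (adjusted p = 0.86). Hence 1 of 3 Gfi1b windows was called higher in each kind of offspring, where 13.3% of all windows were in Sham and 9.26% in PM, and 1 of 3 was called lower, where 22.3% and 34.8% were.

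**Figure D3:**
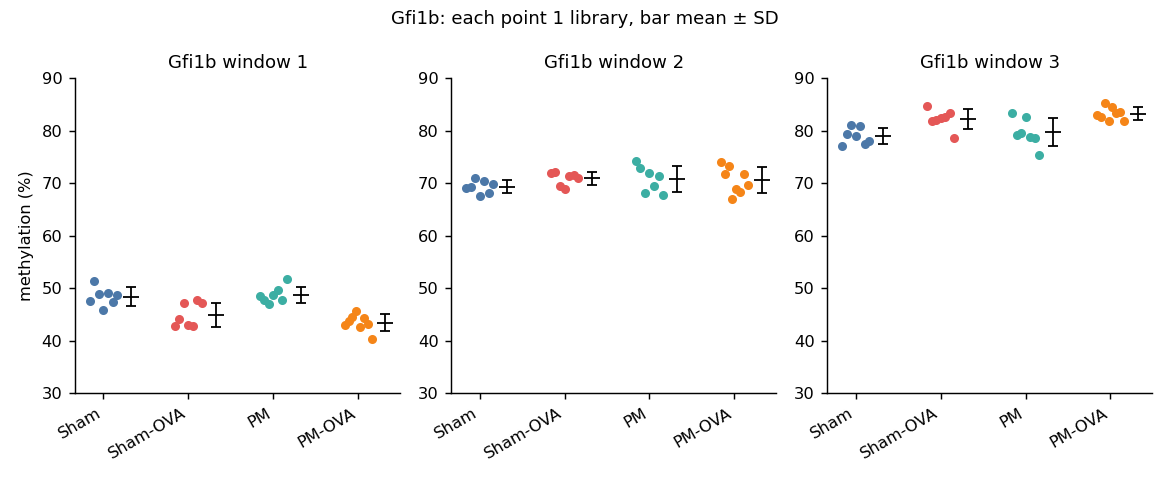
Methylation (%, vertical axis, from 30 to 90) of the 3 Gfi1b windows in every library (points) of the 4 groups (horizontal axis), with black bars for mean ± SD. Window 1 is lower and window 3 higher with OVA by 3.27 to 5.30 points, and window 2 does not pass the test in either kind of offspring.

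The 3′ end of Gfi1b, with its last coding exon, lies in a window that the table names for the microRNA gene Gm22824 (chr2:28607313-28611404), which was named here after its values were seen. It rose from 67.7% ± 2.10 to 72.9% ± 2.74 in Sham (5.20 points, adjusted p = 0.00209 in limma) and from 69.1% ± 2.45 to 72.3% ± 2.38 in PM (3.23 points, adjusted p = 0.0338). At the other end of Gfi1, the window named for its antisense neighbour A430072P03Rik, likewise named after its values were seen, had 1.42% ± 1.29 in Sham and 0.649% ± 0.209 in Sham-OVA, and it did not pass the test (adjusted p = 0.0558 in Sham and 0.289 in PM).

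The maternal comparison asked whether PM exposure of the dam changed these windows, with or without OVA in the offspring. Leaving out the picked window, 0 of 9 Gfi1 and Gfi1b windows were called for PM against Sham without OVA and 0 for PM-OVA against Sham-OVA in limma. At an unadjusted p under 0.05 the counts among the 9 were 1 and 0. The interaction is how far the OVA difference of PM offspring departs from that of Sham offspring, and since Gfi1 was taken for its OVA difference its test is given for Gfi1b alone, where 0 of 3 windows were called and 0 had an unadjusted p under 0.05. Across the whole table these shares were 0% in each of the 3 comparisons, and 15003, 15450 and 19166 of 259167 windows had an unadjusted p under 0.05. Without OVA, the largest difference in the 9 windows was 1.49 points, in Gfi1b window 2 (PM higher, log2 ratio 0.10 ± 0.07 SE, adjusted p = 0.905). The lowest p without OVA was that of Gfi1 window 2 (unadjusted p = 0.0201, adjusted p = 0.839), with 1.94% in Sham and 1.37% in PM.

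With OVA, the PM-OVA means were below the Sham-OVA means in all 3 windows of the region that was higher after challenge. The difference was -3.48 points in Gfi1 window 6 (log2 ratio -0.20 ± 0.12 SE, adjusted p = 0.863) and -3.42 points in Gfi1 window 4 (log2 ratio -0.24 ± 0.14 SE, adjusted p = 0.856). In the picked window 5, which is given as a description, it was -6.09 points. As a description, the OVA difference of PM offspring minus that of Sham offspring was -3.17 points in window 6 and -4.33 points in window 4. These windows covary with the picked one, as the values of r above show, and their libraries overlapped between PM-OVA and Sham-OVA. For Gfi1b the interaction lay between -1.85 and 0.31 points (adjusted p from 0.781 to 0.97).

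Windows around the genes were read in the same way. Within 100 kb of Gfi1, 28 windows of 5 other gene names were tested, and 0 were DMRs in either OVA comparison. Their OVA differences lay between -9.50 points (Rpap2, which encodes a phosphatase of RNA polymerase II) and 2.19 points (Evi5) in Sham, and between -9.58 points (Rpap2) and 3.33 points (Gm26692) in PM. In Sham 4 were called higher (14.3%) and 11 lower (39.3%), against 13.3% and 22.3% of all windows. In PM 2 were higher (7.14%) and 10 lower (35.7%), against 9.26% and 34.8%. Without Sham-OVA replicate 7, 1 neighbouring window of the 2 genes together became a DMR. Around Gfi1b, 48 windows of 10 names ranged from -4.59 to 5.20 points in Sham and from -5.38 to 3.38 points in PM, with 0 DMRs. In Sham 8 of them were called higher (16.7%) and 7 lower (14.6%), and in PM 3 higher (6.25%) and 12 lower (25%).

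**Figure D4:**
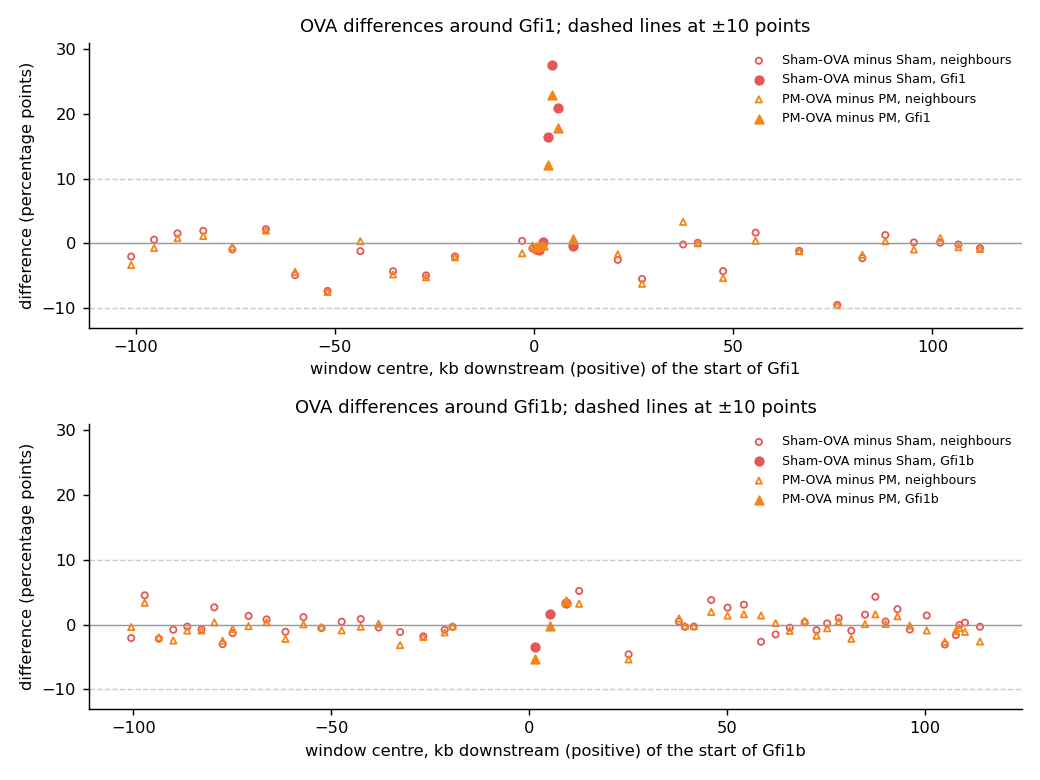
OVA difference of group means (percentage points, vertical axis) against the distance of each window's centre from the first annotated start (kb, positive downstream, horizontal axis) for Gfi1 (top) and Gfi1b (bottom). Filled symbols are windows of the gene, open symbols those of other gene names within 100 kb, circles Sham-OVA minus Sham and triangles PM-OVA minus PM. Gfi1 windows 4 to 6 alone pass the dashed line at 10 points, at 12.1 to 27.5.

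Genes connected with GFI1 and GFI1B gave the context of these changes. Among the partners recruited by the SNAG domain (Kdm1a, Rcor and Hdac genes and others, 11 genes with 160 windows), 38 windows were called higher (23.8%) and 20 lower (12.5%) after OVA in Sham, against 13.3% and 22.3% of all windows. In PM 21 were higher (13.1%) and 29 lower (18.1%), against 9.26% and 34.8%. None was a DMR, and the differences had medians of 0.28 points (Sham) and -0.04 points (PM), against -0.41 and -1.03 over all windows. With libraries centred the PM split became 65 higher (40.6%) and 20 lower (12.5%), against 21.8% and 20.4% of all windows after centring. Genes named here and for the next 3 lists are described by their single window with the largest difference, and other windows of a gene can differ the other way. The largest differences were in Ehmt2, which encodes an H3K9 methyltransferase (78.8% ± 0.873 to 73.7% ± 1.98 in Sham and 80.2% ± 1.47 to 71.5% ± 2.95 in PM), in Hmg20b, a subunit of the KDM1A complex (-6.87 and -5.43 points), and in Phf21a, a histone reader of the same complex (5.91 and 4.26 points). These 3 windows were called in both kinds of offspring (adjusted p from 1.44e-07 to 0.00292 in limma). Ehmt2 had 2 other windows called higher in Sham and 1 in PM, and Phf21a had 10 of 46 windows called higher and 4 lower in Sham, and 5 higher and 9 lower in PM.

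Other zinc finger genes with a SNAG domain (Snai, Scrt and Insm genes, 6 genes with 35 windows) had 12 windows called higher (34.3%, against 13.3% of all windows) and 0 lower (against 22.3%) in Sham. In PM 12 were higher (34.3%, against 9.26%) and 1 lower (2.86%, against 34.8%), and the median differences were 0.58 and 0.46 points. With libraries centred, 16 were higher (45.7%, against 18.5% of all windows after centring) and 0 lower (against 18.4%) in Sham, and 26 higher (74.3%, against 21.8%) and 0 lower (against 20.4%) in PM. These windows averaged 18.1% in Sham, where library averages were 67.8% to 70.2%. Centring moves all windows of a library by the same number of points, which weighs more on the log2 ratio at low methylation. The centred counts are therefore no separate support, and the part of the low level in these counts was not tested. Snai1, for a repressor of epithelial genes, had the largest rise, from 45.2% ± 3.03 to 59.4% ± 4.74 in Sham (14.1 points, adjusted p = 1.55e-06) and from 49.1% ± 2.26 to 59.7% ± 3.89 in PM (10.5 points, adjusted p = 3.46e-05). It supplied the only DMR of this list in each comparison, or 2.86% of its windows, where 0.479% of all windows in Sham and 0.263% in PM were higher DMRs. In PM the count was 0 without PM-OVA replicate 1 and 2 without PM-OVA replicate 4, and in Sham it was 2 without Sham replicate 1, 2 or 4 or Sham-OVA replicate 3, 4 or 7. Scrt1, a neural repressor, rose in Sham (7.49 points, adjusted p = 0.00689) and differed by 3.12 points in PM (adjusted p = 0.228). Insm2 rose by 5.11 points in Sham (adjusted p = 0.000201) and 5.31 points in PM (adjusted p = 6.5e-05).

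Genes that GFI1 is known to repress or to act against (15 genes with 97 windows) had 16 windows higher (16.5%) and 24 lower (24.7%) in Sham, near the 13.3% and 22.3% of all windows. In PM 11 were higher (11.3%) and 31 lower (32%), near the 9.26% and 34.8% of all windows. With libraries centred the splits were 23 to 20 in Sham (23.7% and 20.6%, against 18.5% and 18.4% of all windows after centring) and 33 to 23 in PM (34% and 23.7%, against 21.8% and 20.4%), so that the balance of directions depended on the scaling. DMRs numbered 1 higher (1.03%, against 0.479% of all windows) and 2 lower (2.06%, against 0.296%) in Sham. In PM they numbered 1 higher (1.03%, against 0.263%) and 3 lower (3.09%, against 0.321%), and in Sham the total became 5 without Sham-OVA replicate 7. A window of Spi1, which encodes the myeloid factor PU.1, fell from 67.7% ± 3.07 to 51.9% ± 3.68 in Sham (-15.8 points, adjusted p = 4.73e-08) and from 66.9% ± 3.52 to 50.1% ± 2.20 in PM (-16.8 points, adjusted p = 8.09e-09). Spi1 also held the higher DMR of this list, with differences of 13.9 points in Sham (adjusted p = 0.000153) and 13.5 points in PM (adjusted p = 9.64e-05), and of its 10 windows 4 were called higher and 5 lower in Sham, and 3 higher and 5 lower in PM. A window of Hoxa9, a homeobox gene of stem and progenitor cells, was lower as well (-11.8 points in Sham, adjusted p = 2.68e-05, and -11.7 points in PM, adjusted p = 1.43e-05). Of the 7 Hoxa9 windows, 1 was called higher and 2 lower in Sham, and 1 higher and 3 lower in PM. Cebpe, a factor of late granulocyte maturation, had both of its windows called lower, and the named one differed by -9.26 points in Sham (adjusted p = 0.000164) and -5.06 points in PM (adjusted p = 0.013).

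Transcription factors of the blood lineages (Gata, Tal1, Lmo2, Runx1 and others, 11 genes with 196 windows) had 8 higher DMRs (4.08%, against 0.479% of all windows) and 7 lower (3.57%, against 0.296%) in Sham. In PM they had 8 higher (4.08%, against 0.263%) and 6 lower (3.06%, against 0.321%). In all, 62 windows were called higher (31.6%, against 13.3% of all windows) and 46 lower (23.5%, against 22.3%) in Sham. In PM 57 were called each way (29.1%, against 9.26% higher and 34.8% lower), or 87 higher (44.4%) and 40 lower (20.4%) with libraries centred, against 21.8% and 20.4% of all windows after centring. In the 3 genes with the largest differences the window named was lower. That of Ikzf1, a lymphoid zinc finger factor, went from 62.0% ± 1.65 to 38.5% ± 5.76 in Sham and from 60.9% ± 3.02 to 38.7% ± 4.02 in PM (adjusted p = 3.86e-09 and 2.96e-09). The window of Runx1, a master regulator of blood formation, had differences of -22.5 points in Sham (adjusted p = 1.2e-06) and -19.3 points in PM (adjusted p = 4.01e-06). Of the 66 Runx1 windows, however, 28 were called higher and 10 lower in Sham, with 6 higher and 3 lower DMRs, and 25 higher and 11 lower in PM, and its highest differences were 20.05 points in Sham and 20.37 points in PM. The differences of the Fli1 window, in a gene for a megakaryocyte and endothelial factor, were -14.0 points (adjusted p = 6.91e-07) and -15.1 points (adjusted p = 1.09e-07). Of the 28 Fli1 windows 8 were called higher and 9 lower in Sham, and 8 higher and 10 lower in PM, while of the 17 Ikzf1 windows 1 was called higher and 10 lower in Sham, and 1 higher and 11 lower in PM.

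**Figure D5:**
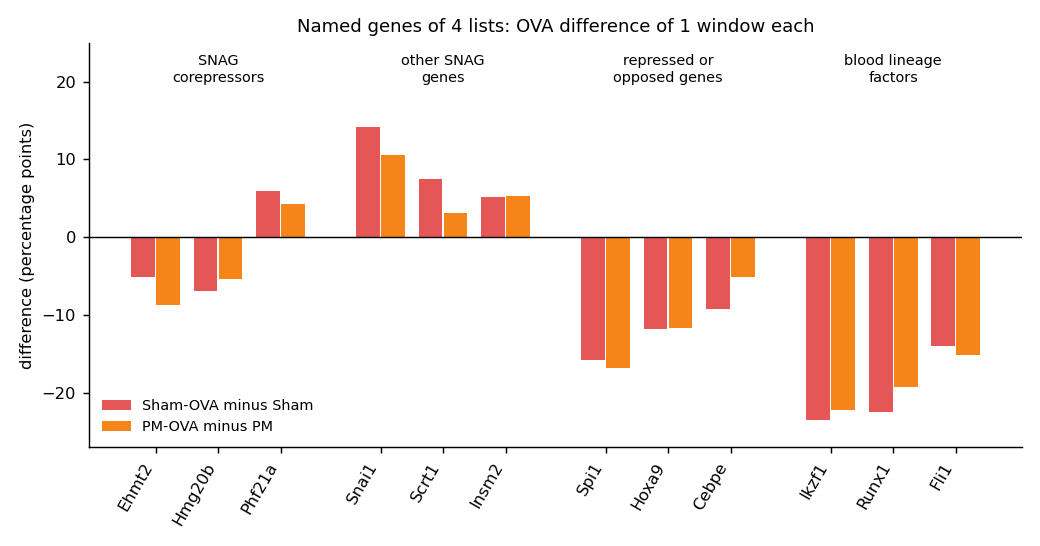
OVA difference of group means (percentage points, vertical axis) of 1 window for each of 12 genes in 4 lists, as Sham-OVA minus Sham (red) and PM-OVA minus PM (orange) bars. Differences run from -23.5 points (Ikzf1, Sham) to 14.1 points (Snai1, Sham), and the 2 bars of each gene point the same way.

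Windows of cell type marker genes also differed after OVA, and in bulk lung a change in the share of a cell type cannot be told apart from a change within its cells. The mean over 39 windows of 4 genes expressed in all leucocytes (Ptprc, Coro1a, Itgb2 and Cytip) ran from 70.8% to 72.0% in Sham and from 66.3% to 68.5% in Sham-OVA, and from 71.1% to 71.7% in PM and 66.4% to 68.3% in PM-OVA, with no overlap. Of these windows 8 were called higher (20.5%, against 13.3% of all windows) and 18 lower (46.2%, against 22.3%) in Sham, 9 of them lower DMRs (23.1%, against 0.296%). The mean over 16 windows of 5 eosinophil genes ran from 68.6% to 70.7% in Sham and 65.5% to 67.6% in Sham-OVA, and from 69.3% to 71.4% in PM and 65.5% to 66.9% in PM-OVA. Called windows of that list were 9 of 16 in Sham (56.2%, against 22.3% of all windows) and 10 of 16 in PM (62.5%, against 34.8%), all lower. The mean over 6 B cell windows ran from 69.8% to 72.2% in Sham and from 62.5% to 65.5% in Sham-OVA, and from 70.8% to 72.3% in PM and 61.0% to 66.8% in PM-OVA. That over 8 neutrophil windows ran from 67.0% to 69.0% in Sham and from 64.2% to 66.9% in Sham-OVA, while the PM (66.0% to 69.7%) and PM-OVA (63.9% to 66.8%) libraries overlapped.

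The 21 T cell windows overlapped between Sham (67.8% to 70.1%) and Sham-OVA (67.1% to 68.8%), and between PM (68.7% to 70.9%) and PM-OVA (66.8% to 68.9%). The 35 epithelial windows overlapped as well (60.9% to 63.0% in Sham and 62.0% to 63.2% in Sham-OVA, 61.8% to 63.0% in PM and 61.4% to 62.8% in PM-OVA). The 67 endothelial windows ran from 65.9% to 68.8% in Sham and from 68.8% to 71.0% in Sham-OVA, and from 65.6% to 69.6% in PM and 68.7% to 71.0% in PM-OVA, with overlap in both, and 31 of them were called higher (46.3%, against 13.3% of all windows) and 5 lower (7.46%, against 22.3%) in Sham. These lists hold 3 to 5 measured genes each and describe methylation, not expression. Within groups, r with Gfi1 window 5 over the 29 libraries was -0.37 for the leucocyte mean, 0.02 for the eosinophil mean, -0.13 for the B cell mean, 0.00 for the neutrophil mean, 0.29 for the T cell mean, 0.44 for the epithelial mean and 0.45 for the endothelial mean. It was 0.40 for the corepressors, 0.43 for other SNAG genes, 0.04 for repressed or opposed genes and 0.53 for blood lineage factors. The part of cell composition in the Gfi1 and Gfi1b differences was not tested.

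The windows most like Gfi1 window 5 were sought among 258493 windows of other genes with a value in all libraries. Over the 29 libraries, Pearson's r was highest for Lncppara (0.94), Rnf144a (0.93), Gm49361 (0.93), Clic4 (0.93) and Braf (0.93), a kinase of the MAPK pathway. All 5 were higher after OVA in both kinds of offspring, by 5.80 to 19.7 points, and the 99th percentile of r over the windows compared was 0.82. Since the picked window was taken for its OVA rise, a high r over all libraries goes with such a rise, and nothing is read from it. After group means were removed, the highest values were those of Snhg1 (0.78), Gnb1 (0.77), Gm14271 (0.77), Dbnl (0.76) and C130046K22Rik (0.76), against a 99th percentile of 0.54. Of these, Snhg1 had OVA differences of -0.11 and -1.30 points, and Gnb1, for a G protein subunit, of 7.44 and 6.04 points. By Spearman's rho 1 of the 5 genes was shared in each ordering.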

How the data were processed

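WGMS was applied to lung DNA of 29 animals, 1 library each. According to GEO's labels and the published methods, the authors used enzymatic methyl-seq with a lambda spike, Trim Galore for trimming, DRAGEN for mapping to GRCm38 and for methylation calls, and SeqMonk for windows. The values as deposited are percent methylation per window and library. They were not normalised between libraries and come without coverage, so depth is unknown here. Replicates were not pooled.

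Windows with at least 3 values in every group (259167 of 260686) were tested with limma 3.58.1 in R 4.3.3 on log2((percent + 1)/(100 - percent + 1)), in 1 fit over the 4 groups. Tests were 2-sided, and p was adjusted by the Benjamini-Hochberg method across the tested windows. Differences are of group means in percentage points, PM or OVA minus its control. The code was tested on simulated data. CpGs, exons and sequences were read from the GRCm38 sequence and GENCODE M21 with Python 3.11.15 and pysam 0.24.0.

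Gfi1 and Gfi1b, the gene lists and the tests were chosen with earlier results of these data known. All Gfi1 and Gfi1b windows are described. From each list, up to 3 genes with the largest absolute difference among called windows are named, and for likeness the 5 genes with the highest r. List members without a window are not analysed here. Alternatives changed the offset, the scale, the filter, the centring of libraries, the groups fitted, the prior, the replicate block, the libraries left out, including the PM-OVA libraries whose library name holds Rel, the thresholds, means against medians, the rank correlation and the distance. Windows outside genes, the lambda reads and RNA data were not analysed here.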

Additional observations from a re-analysis of the deposited data

Results flagged for a closer look

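Each of the 40 combinations of a window of Gfi1 or Gfi1b and a group was examined for a library far from the rest of its group (Dixon's criterion), and 3 were marked, where chance marks about 1 in 20. In Gfi1 window 1, Sham replicate 4 had 4.29%, and the other Sham libraries lay between 0.815% and 1.91%. In Gfi1 window 3, Sham replicate 1, the library with Y chromosome values, had 0.667%, and the others lay between 1.10% and 1.42%. In Gfi1 window 7, PM replicate 7 had 61.1%, and the other PM libraries lay between 64.8% and 67.5%. None of these lies in windows 4 to 6. With coverage unknown, the counting error of the low values of windows 1 and 3 cannot be given.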

How the results depend on the processing

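Gfi1 was taken for its difference after OVA, so its values under the alternatives are a description. Leaving out 1 library at a time, the difference of the picked window ran from 25.3 to 29.8 points in Sham and from 20.6 to 24.7 points in PM. Called Gfi1 windows then numbered 4 to 5 in Sham and 3 to 4 in PM, and called Gfi1b windows 2 in both. Gfi1b window 1 lay between -3.92 and -2.95 points in Sham and between -5.63 and -4.81 in PM (adjusted p from 0.00447 to 0.0252 and from 5.9e-05 to 0.000337), and Gfi1b window 3 between 2.86 and 3.86 points in Sham and between 2.87 and 4.21 in PM. DMRs among neighbouring windows numbered 0 to 1 in Sham, those of other SNAG genes 1 to 2 in Sham and 0 to 2 in PM, and those of repressed or opposed genes 3 to 5 in Sham.

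The study's adjusted p threshold of 1e-06 belongs to another test, one on counts. Here it left, in Sham and then PM, 2 and 2 Gfi1 windows, 0 and 0 Gfi1b windows, 3 and 3 neighbouring windows, 0 and 1 windows of corepressors, 0 and 1 of other SNAG genes, 2 and 3 of repressed or opposed genes, and 16 and 14 of blood lineage factors, and DMRs of 0 and 0 for other SNAG genes, 1 and 2 for repressed or opposed genes and 8 in PM for blood lineage factors. Of all windows 1.14% and 2.12% were called and 0.398% and 0.355% were DMRs at this threshold. Gfi1b windows 1 (-3.46 and -5.30 points) and 3 (3.27 and 3.57 points) then no longer passed. The picked Gfi1 window 5 (27.5 and 22.9 points) did not pass either, and 2 Gfi1 windows were DMRs in both. Nothing is read from this for Gfi1, since it was taken for its OVA difference. A minimum difference of 5 points gave 4 and 6 neighbouring DMRs, 12 and 6 for corepressors, 6 and 4 for other SNAG genes, 15 and 15 for repressed or opposed genes, 52 and 43 for blood lineage factors, and 1 for Gfi1b in PM, where 5.96% and 5.89% of all windows were DMRs. Centring the libraries gave 85 called corepressor windows and 26 of other SNAG genes in PM, against 42.2% of all windows, and 2 DMRs of the latter in Sham, against 0.814%. Without the Rel libraries the other SNAG genes had 0 DMRs in PM. Within 50 kb, 14 and 13 neighbouring windows were called and 0 were DMRs, since fewer windows were counted. Spearman's rho shared 1 of the 5 most similar genes in either ordering. For the other changes the cause was not tested.

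The replicate numbers were not taken to pair the libraries. They are those of the sample titles. For some PM-OVA and Sham-OVA libraries the library name holds another number, and a pairing by library name was not tested. Over 42 pairs of the same number, r of deviations from group means ran from -0.041 to 0.104 (median 0.014, against -0.0023 for different numbers). Of 29 libraries, 9 (31%) correlated best with one of their own number, where 13.3% of possible partners had it. With the number as a replicate block, 4 and 3 Gfi1 windows and 2 and 2 Gfi1b windows were called, and 108 and 104 windows of blood lineage factors, so the block moved no count of calls by more than 1.5 times. No coverage is given, and depth therefore sets no limit that can be stated here.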
